A study of Rattus norvegicus with 6 samples.

Results

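The Notch genes described here are 3 receptors (Notch1, Notch2 and Notch3), the ligand Jag1, the target genes Hes1, Hey1 and Heyl, the DNA-binding factor Rbpj and its co-activator Maml1. They were taken by gene symbol from a table of 32623 genes, and all 9 were found, each as a single entry. Expression had been measured by RNA sequencing in cultured rat nucleus pulposus cells, which fill the soft centre of the intervertebral disc. The protocol names bead selection of poly(A) RNA but also leaves the fraction as plus or minus and refers to an adipose type, so the RNA fraction sequenced is uncertain, which bears on the rRNA shares given below. The donors were male rats of the Sprague-Dawley strain, 4 weeks old, whose lumbar discs gave the cells, and passages 3 to 5 were used. For 72 hours the cells had been exposed to lentivirus that delivered a hairpin RNA, either one against the clock gene Bmal1 (3 libraries, shBmal1) or a control one without that target (3 libraries, shNC). All 6 libraries therefore came from passaged, lentivirus-treated cells, and cells without virus were not analysed here. The sources used here do not give the number and sequence of the hairpins, or say whether libraries within a group are separate cultures. The p-values below accordingly measure the spread between these libraries, which may be technical.

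Notch receptors sit in the cell membrane and are switched on by ligands such as Jagged-1 on a neighbouring cell. Ligand binding lets ADAM proteases and then gamma-secretase cut the receptor, and the freed intracellular domain enters the nucleus, joins RBPJ and mastermind-like proteins such as MAML1, and turns on repressor genes of the Hes and Hey families. In skeletal tissues the pathway is known to restrain differentiation and to take part in keeping progenitor cells, and it has been described in the intervertebral disc, where hypoxia and inflammatory cytokines act on it.

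The hairpin target and the depth of the libraries set the frame for these values. Bmal1, listed as Arntl, had 9.55% of the control level left (29.5 ± 2.14 against 2.82 ± 1.23 CPM, TMM-scaled counts relative to library size; SD, n = 3 per group; adjusted p = 1.17e-05 in edgeR's quasi-likelihood test). Library totals lay between 44043803 and 49783710 counts for shNC and between 8773762 and 11679587 for shBmal1, a 4.44-fold difference of the means, and mitochondrial rRNA took a 19.3-fold larger share of the counts in shBmal1. The part of depth and of the mitochondrial share in the differences below was not tested beyond the alternatives named; leaving mitochondrial and ribosomal RNA genes out changed no member's call. Of 14342 genes tested, 71.3% passed an adjusted p under 0.05 (36.0% higher, 35.3% lower in shBmal1), so a call on its own sets no gene apart here. The share of all genes tested whose groups do not overlap was not counted, so a lack of overlap below sets no gene apart either. Markers of nucleus pulposus cells differed between the groups as well. Of 13 found, 10 were tested, of which 4 fell, 2 rose and 4 did not pass. The cartilage matrix genes Acan and Col2a1 fell 19.8-fold and 37.0-fold, Pax1 6.20-fold and Krt8 2.34-fold, whereas Foxf1 and Ca3 rose, and the notochordal genes Tbxt and Shh had no count in any library. Summed over the list, FPKM lay between 329 and 337 for shNC and between 90.4 and 109 for shBmal1.

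Among the 9 members, 2 rose in shBmal1 (Hes1 and Notch1), 5 fell (Notch3, Jag1, Notch2, Rbpj and Maml1), Hey1 did not pass the test and Heyl had too few counts to be tested. Against the background of 71.3%, 7 of 8 tested members were called. The median log2 fold change of the 8 was −0.88, against −0.01 over all genes tested. The sizes of the differences varied widely. Notch3 fell 36.0-fold and Jag1 8.14-fold, Hes1 rose 4.89-fold, and the other called members moved by 1.46-fold (Notch1) to 1.88-fold (Notch2). In bulk RNA, fewer cells of a type and less RNA per cell cannot be told apart.

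**Figure D1:**
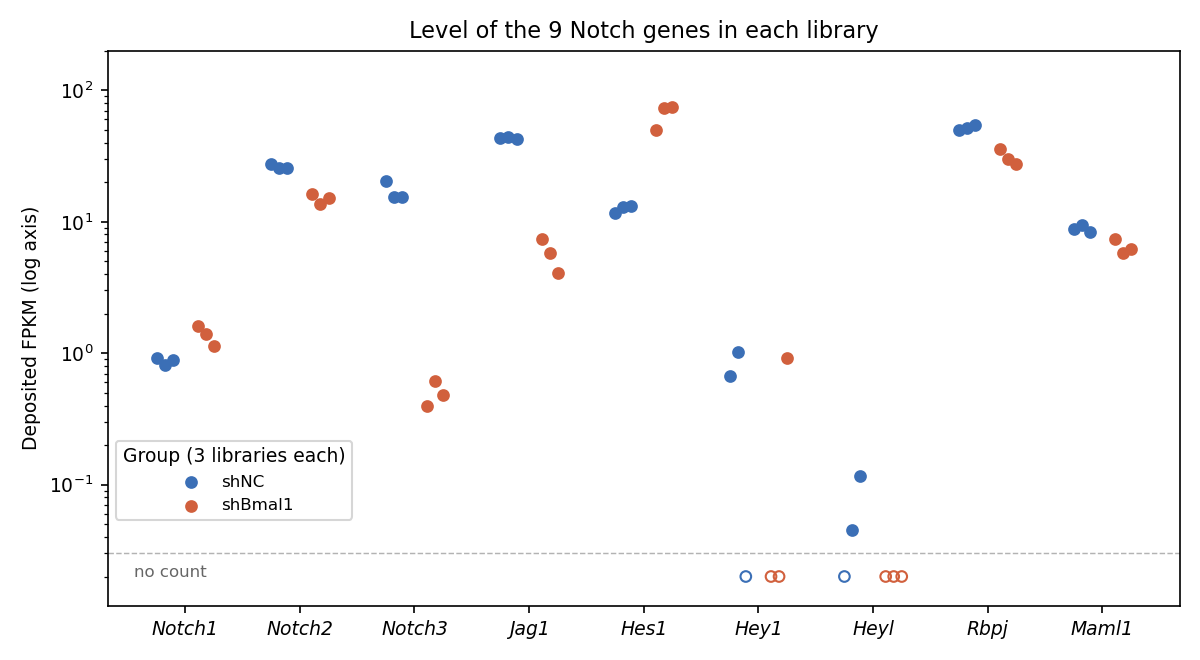
Deposited FPKM (log axis) of each of the 9 Notch genes, with 1 point per library (blue, shNC; orange, shBmal1; 3 libraries each), and open circles below the dashed line for libraries with no count. Notch3 and Jag1 sit far lower in shBmal1 and Hes1 higher, while Hey1 and Heyl have libraries without a count.

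Levels are compared between genes as FPKM, which is scaled for gene length. In shNC the order was Rbpj (52.1 ± 2.28 FPKM), Jag1 (43.4 ± 0.87), Notch2 (26.2 ± 1.10), Notch3 (17.0 ± 2.82), Hes1 (12.6 ± 0.88), Maml1 (8.87 ± 0.60) and Notch1 (0.873 ± 0.060; SD, n = 3). From Rbpj down to Notch1 no 2 neighbours in this order overlapped over the 3 libraries. In shBmal1 the order was Hes1 (66.4 ± 14.2 FPKM), Rbpj (31.2 ± 4.28), Notch2 (15.1 ± 1.27), Maml1 (6.47 ± 0.86), Jag1 (5.77 ± 1.69), Notch1 (1.38 ± 0.24) and Notch3 (0.497 ± 0.111), and of these neighbours Maml1 and Jag1 overlapped. Hes1 thus went from the fifth to the first place and Jag1 from the second to the fifth. The ratio of Hes1 to Jag1 FPKM, which cancels library scaling, was 0.269, 0.293 and 0.308 over the shNC libraries, and over those of shBmal1 6.72, 12.8 and 18.5.

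Among the receptors, Notch3 showed the largest difference. Notch3 is the receptor best known from vascular smooth muscle and pericytes. The shNC libraries had 20.3, 15.5 and 15.3 FPKM (7262, 5782 and 5074 counts), and the shBmal1 libraries 0.396, 0.616 and 0.479 FPKM (28, 56 and 43 counts). All 3 shBmal1 libraries lay far below every shNC library, and shNC replicate 1 was the highest. Scaled counts went from 135 ± 23.9 to 3.71 ± 0.79 CPM (SD, n = 3 per group), or 2.74% of the shNC mean. On the log2 scale this was −5.17 ± 0.19 (SE; adjusted p = 2.46e-07, edgeR), and 1.06% of the genes tested had a lower value. The gene lies on chromosome 7 at 14138495 to 14189688, reverse strand (coordinates as in the deposited table; the sources used here do not name its genome build). It overlaps 2 small annotated genes, which together had 4 counts over all libraries.

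Notch2 was the most abundant receptor transcript in both groups. The shNC libraries held 27.5, 25.5 and 25.6 FPKM of it, those of shBmal1 16.3, 13.7 and 15.3. The groups did not overlap, and the level in shBmal1 was 53.3% of that in shNC (329 ± 17.1 to 175 ± 14.8 CPM; −0.91 ± 0.08 in log2 units, SE; adjusted p = 2.01e-05, edgeR). Notch2 lies on chromosome 2 at 200187179 to 200320215, forward strand.

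Notch1, the receptor with the broadest known roles, was a minor transcript at 0.926, 0.808 and 0.884 FPKM in shNC and 1.61, 1.39 and 1.13 in shBmal1. Every shBmal1 library exceeded every shNC library, with shBmal1 replicate 3 nearest to the controls. Notch1 rose from 9.04 ± 0.66 to 13.2 ± 2.43 CPM (0.55 ± 0.18 in log2 units, SE; adjusted p = 0.0275, edgeR), on chromosome 3 at 3905453 to 3951025, reverse strand. The value stayed positive under all 16 alternatives but lost its call under 7 of them. It missed the threshold without shNC replicate 2 or 3 (adjusted p = 0.0802 and 0.0661) and without shBmal1 replicate 1 or 2 (0.093 and 0.0682, edgeR). With FPKM rescaled to TPM and a pseudocount of 1, the log2 fold change of Notch1 was 0.11 (adjusted p = 0.524, limma). The median of all genes tested was −0.35 in that setting. The pseudocount also moved the value of Notch1, which was 0.34 for FPKM with a pseudocount of 1 and 0.59 with 0.1.

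The make-up of the receptor transcripts changed accordingly. Of the summed FPKM of the 3 receptors, Notch2 held 56.4, 61.1 and 61.2% in shNC and 89.0, 87.3 and 90.5% in shBmal1. Notch3 held 41.7, 37.0 and 36.7% in shNC against 2.17, 3.91 and 2.84% in shBmal1, and Notch1 went from 1.98 ± 0.12% to 8.11 ± 1.24% (SD, n = 3 per group). The shares of each receptor did not overlap between the groups. These shares are ratios within a library, so that depth scaling cancels, and they describe proportions only. The summed level was 44.1 ± 3.96 FPKM in shNC and 17.0 ± 1.26 FPKM in shBmal1.

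**Figure D2:**
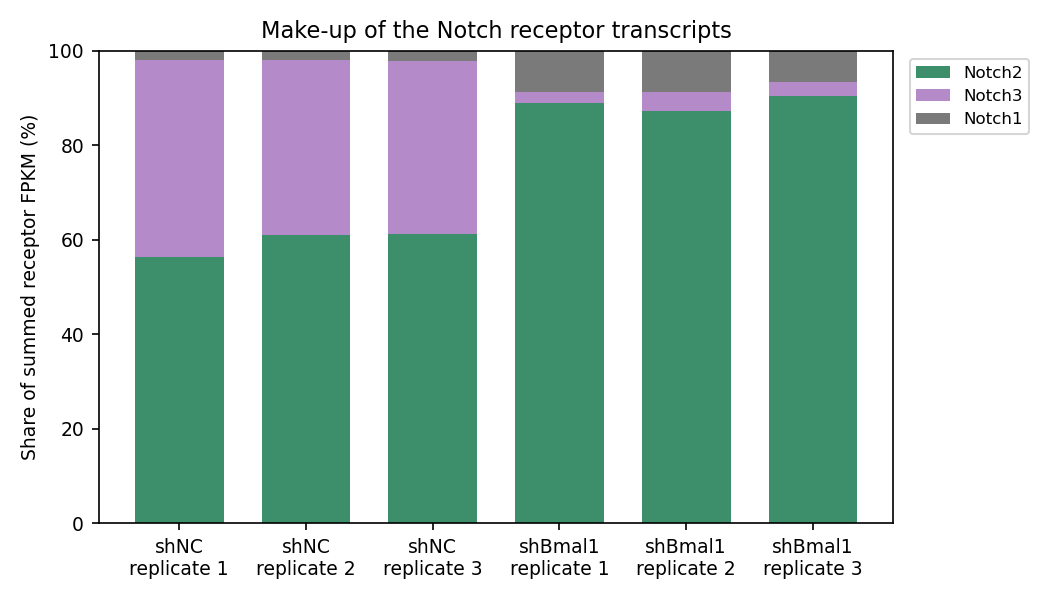
Share (%) of Notch1, Notch2 and Notch3 in their summed FPKM, 1 stacked bar per library. Notch3 takes between 36.7 and 41.7% in the 3 shNC libraries and at most 3.91% in the 3 shBmal1 libraries.

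Jag1, which encodes the Notch ligand Jagged-1, also fell. It stood at 43.0, 44.4 and 42.9 FPKM in shNC, compared with 7.44, 5.80 and 4.07 in shBmal1. The 3 shNC libraries were close together, the shBmal1 libraries spread over a wider range, and the groups were far apart. Scaled counts went from 263 ± 6.02 to 32.4 ± 9.66 CPM (SD, n = 3 per group; log2 fold change −3.03 ± 0.19, SE; adjusted p = 3.78e-06, edgeR), and 3.33% of the genes tested had a lower value. Jag1 lies on chromosome 3 at 130079361 to 130114770, reverse strand. The other canonical ligand genes had at most 27 counts in any library. Jag2 had 0, 4 and 23 counts in shNC and 4, 2 and 2 in shBmal1, Dll1 had counts in 1 library of each group (4 and 8), Dll3 had 5 counts in 1 shNC library and 27 and 6 in 2 shBmal1 libraries, and Dll4 had 4 counts in 1 shNC library. None of these 4 ligands met the count filter. Notch4, the remaining receptor and at 0.0329 to 0.164 FPKM in shNC far below the others, was tested and did not pass (log2 fold change 0.36 ± 0.74, SE; adjusted p = 0.681, edgeR), and its sign changed between alternatives.

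Markers of mural cells, the pericytes and smooth muscle cells for which Notch3 is known, moved with these genes. Of 10 such markers, all tested, 8 fell, Myh11 rose and Abcc9 did not pass. Over all genes tested, 35.3% were called lower and 36.0% higher, which is the background for each marker list here. Summed over the list, FPKM lay between 3053 and 3244 for shNC and between 616 and 701 for shBmal1. Most of it came from the actin-binding and actin genes Tagln (1900 ± 56.4 to 550 ± 22.0 FPKM) and Acta2 (1088 ± 42.9 to 65.5 ± 16.6 FPKM; SD, n = 3 per group). Rgs5 and Cnn1 had no count in shBmal1 replicates 2 and 3. The summed nucleus pulposus markers, given above, were also lower in shBmal1. The part of either list in the fall of Notch3 and Jag1 was not tested. Of 10 endothelial markers found, 5 were tested, with 3 higher and 2 lower. The defining genes Cdh5 and Kdr had at most 15 counts in any library, and Sox17 had none. Summed endothelial FPKM was 7.51 to 9.28 in shNC and 2.41 to 3.85 in shBmal1. Most of the shNC sum came from the 2 that fell, Esam (mean 4.62 FPKM) and Erg (3.82). The 3 that rose, Tek, Tie1 and Vwf, had means of 0.0961, 0.0116 and 0.0131 FPKM in shNC, so the sum does not follow them. Of 9 immune markers, 3 were tested, with 2 higher and 1 lower, and summed FPKM was 17.8 to 24.3 in shNC and 17.5 to 23.4 in shBmal1, with Ptprc, the pan-leukocyte gene, at no more than 17 counts.

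Hes1 was higher in shBmal1, as Notch1 was, and opposite in direction to Notch2, Notch3 and Jag1. HES1 is a basic helix-loop-helix repressor, the classic target of activated Notch, and is known to oscillate because it represses its own gene. It reached 11.6, 13.0 and 13.2 FPKM in shNC (819, 960 and 863 counts) and 50.0, 74.0 and 75.2 FPKM in shBmal1 (679, 1323 and 1307 counts in the shallower libraries). All shBmal1 libraries were above all shNC libraries, with shBmal1 replicate 1 the lowest of its group. Scaled counts rose from 19.7 ± 1.19 to 96.4 ± 20.1 CPM (SD, n = 3 per group; log2 fold change 2.29 ± 0.16, SE; adjusted p = 5.56e-06, edgeR), and 87.3% of the genes tested had a lower value. Hes1 lies on chromosome 11 at 74312806 to 74315248, reverse strand. Under 16 alternatives its value ran from 1.86 to 2.42 and kept its call.

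The bases upstream of Hes1, Notch3 and Jag1, the 3 members with the largest differences, are shown to compare what they hold for RBPJ, for BMAL1 and for HES proteins. They are the 250 bases before the RefSeq start on GRCr8, a build that need not be that of the deposited coordinates. Capitals mark matches, on either strand, of TGGGAA (the core bound by RBPJ), CACGTG (the canonical E-box of CLOCK and BMAL1) or CACNAG (the N-box bound by HES proteins). The windows are chr11:84213046-84213295, chr7:11834586-11834835 and chr3:144894884-144895133, all on the reverse strand.
Hes1: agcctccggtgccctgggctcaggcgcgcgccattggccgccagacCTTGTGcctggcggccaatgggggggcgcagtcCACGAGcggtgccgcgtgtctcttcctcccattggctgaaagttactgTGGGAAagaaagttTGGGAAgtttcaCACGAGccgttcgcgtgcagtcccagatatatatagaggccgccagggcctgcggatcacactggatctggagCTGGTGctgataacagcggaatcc
Notch3: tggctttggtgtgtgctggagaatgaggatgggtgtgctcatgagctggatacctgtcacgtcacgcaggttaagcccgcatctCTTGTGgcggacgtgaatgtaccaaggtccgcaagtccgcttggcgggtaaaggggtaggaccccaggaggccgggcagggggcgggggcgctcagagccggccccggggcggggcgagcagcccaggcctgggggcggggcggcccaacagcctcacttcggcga
Jag1: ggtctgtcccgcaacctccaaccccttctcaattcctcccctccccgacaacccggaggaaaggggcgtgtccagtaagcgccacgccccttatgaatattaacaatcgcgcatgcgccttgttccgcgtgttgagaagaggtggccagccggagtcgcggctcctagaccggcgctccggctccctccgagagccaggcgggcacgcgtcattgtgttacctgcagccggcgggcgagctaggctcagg
The Hes1 window held TGGGAA in 2 copies, their first bases 123 and 109 bases before the start, and CACNAG in 4 copies, 204, 171, 97 and 24 bases before it. Over the full 300 bases of each RefSeq window, which run on to 50 bases after the start, 25.7% of 33469 windows held TGGGAA at least once and 3.85% at least 2 times, 43.1% held CACNAG and 6.42% held CACGTG. Notch3 had 1 CACNAG upstream and 1 TGGGAA, 42 bases after the start, and Jag1 had no match to any of the 3 motifs. Of the 9 members, 8 had a window, 2 of them overlapping for Rbpj, and none of these windows contained CACGTG. Rbpj held TGGGAA in both windows, but the match of its first window lay in the overlap and was counted again in the second. Notch1 held CACNAG 4 times with 2 of them overlapping each other, and Notch2, Heyl and Maml1 held none of the motifs. A match is a description of the letters and no evidence of binding, and only these 300 bases were searched.

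**Figure D3:**
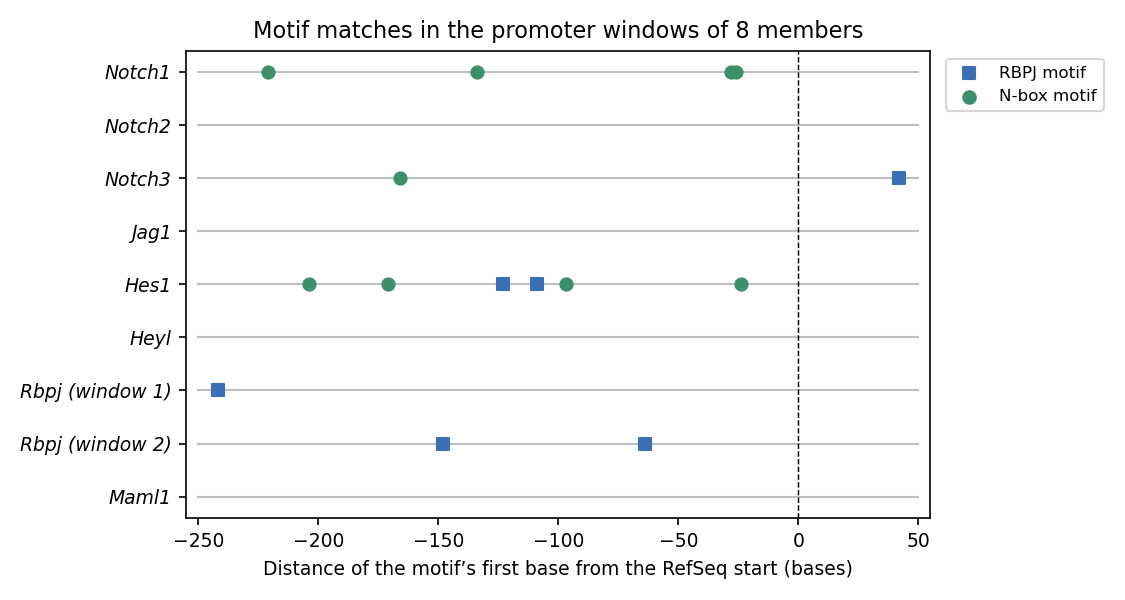
Positions of RBPJ (blue squares) and N-box (green circles) motif matches along the promoter windows of 8 members, as distance in bases from the RefSeq start (dashed line), both strands; grey lines span the searched window. Hes1 carries 2 RBPJ matches between N-box matches, and Notch2, Jag1, Heyl and Maml1 carry none.

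Hey1 and Heyl, the other target genes among the members, were near the limit of detection. Hey1 encodes a repressor related to HES1 with known roles in vascular and skeletal tissue. It had 32, 50 and 0 counts in shNC and 0, 0 and 11 in shBmal1, so each group had at least 1 library without a count. Hey1 met the count filter through 2 shNC libraries and 1 shBmal1 library and did not pass the test (log2 fold change −0.91 ± 1.61, SE; adjusted p = 0.632, edgeR). Without shBmal1 replicate 3 its value was −7.22 (adjusted p = 0.132), against shBmal1 libraries that were then all at 0. Heyl, another Hey gene, had 0, 11 and 25 counts in shNC and none in shBmal1. With shBmal1 set to 3 counts in all, its mean was at least 3.02-fold lower than in shNC, but shNC replicate 1 had no count either, and Heyl was not tested. Nrarp, a feedback inhibitor that Notch induces, gave a like picture with 0, 8 and 15 counts in shNC and none in the shallower shBmal1 libraries. With shBmal1 set to 3 counts in all, Nrarp was at least 1.93-fold lower, and it was not tested either. Hey1 lies on chromosome 2 at 95320283 to 95322696 and Heyl on chromosome 5 at 140923914 to 140940905, both forward strand.

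Other Hes and Hey genes did not all follow Hes1. Of 7 in a list of such targets, 3 were tested, of which 2 rose and 1 fell, where 71.3% of all genes tested were called. Hey2, the relative of Hey1, had 3.22, 3.41 and 3.38 FPKM in shNC and 6.12, 8.84 and 9.48 in shBmal1, with no overlap. It rose from 9.68 ± 0.23 to 21.9 ± 4.66 CPM (1.18 ± 0.18 in log2 units, SE; adjusted p = 0.000491, edgeR) and was thus the Hey gene with the highest count in both groups. Hes2 rose from 0.648 ± 0.257 to 6.77 ± 1.27 CPM (3.37 ± 0.42, SE; adjusted p = 0.00016, edgeR), from 16, 40 and 31 counts to 75, 82 and 67. Hes6, whose product is known to antagonise HES1, fell from 23.1 ± 1.17 to 14.4 ± 5.37 CPM (−0.67 ± 0.25, SE; adjusted p = 0.0381, edgeR). Its call was lost under 7 of 16 alternatives, among them leaving out any 1 shNC library (adjusted p = 0.0904, 0.0656 and 0.0768) or shBmal1 replicate 1 (0.0749). Hes3 and Hes5 had no count in any library.

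The nuclear partners of the receptors fell by a modest amount. RBPJ is the DNA-binding protein through which all Notch receptors act, and a repressor in their absence. Rbpj had 49.9, 51.9 and 54.4 FPKM in shNC and 35.8, 30.3 and 27.4 in shBmal1, without overlap. The fall was from 242 ± 7.98 to 134 ± 19.4 CPM (−0.85 ± 0.10 in log2 units, SE; adjusted p = 0.000137, edgeR) and lies on chromosome 14 at 59658935 to 59735450, reverse strand. MAML1 binds the RBPJ and Notch complex and recruits histone acetyltransferases. Maml1 had 8.83, 9.49 and 8.29 FPKM in shNC and 7.43, 5.78 and 6.20 in shBmal1, where the highest shBmal1 library came near the lowest shNC library without reaching it. Its mean went from 52.7 ± 3.80 down to 35.6 ± 4.84 CPM (−0.57 ± 0.11 in log2 units, SE; adjusted p = 0.0024, edgeR) and lies on chromosome 10 at 35765719 to 35800120, reverse strand. The fall of both was smaller than that of Jag1 and Notch3 in every alternative run.

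**Figure D4:**
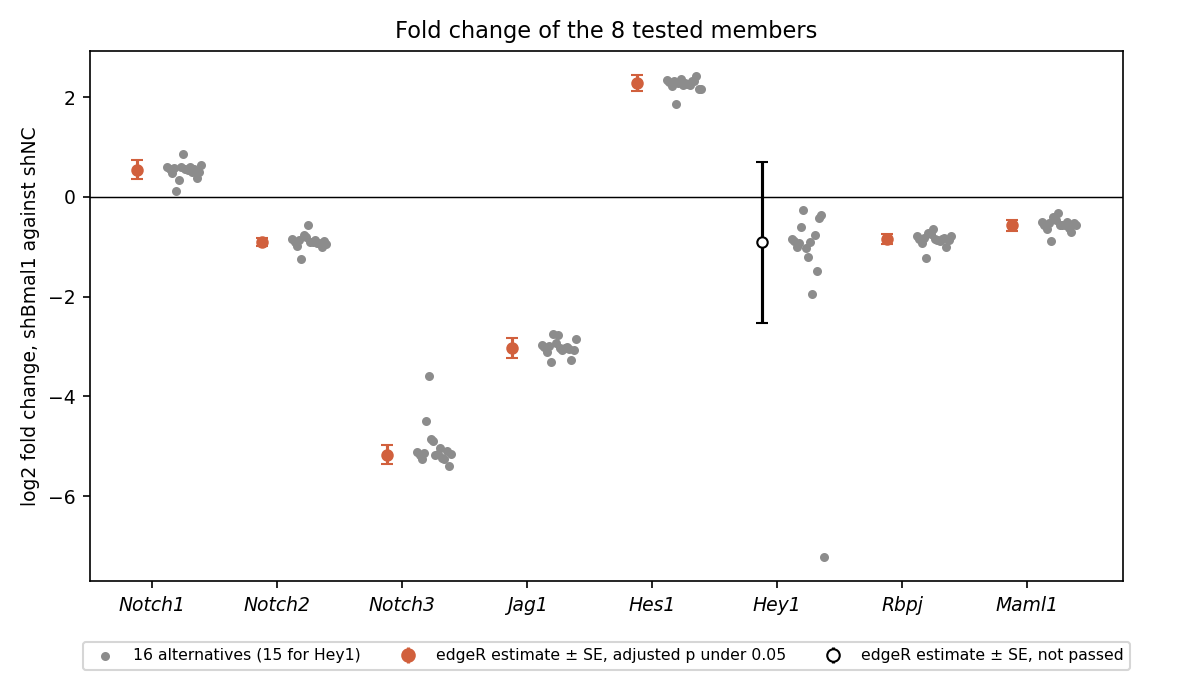
log2 fold change (shBmal1 against shNC) of the 8 tested members, with the edgeR estimate and its SE (orange, adjusted p under 0.05; open black, not passed) and, as grey points, the value under each alternative setting. Notch3, Jag1 and Hes1 stand away from 0 in every setting, Notch1 stays above 0 but near it, and Hey1 has an SE of 1.61.

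Several members are long transcripts, and length moved with the fold change in these libraries. The median log2 fold change was 0.48 in the shortest of 4 equal length classes of tested genes and −0.24 in the longest. Notch2, Notch1 and Notch3 were longer than 99.4, 98.9 and 96.9% of tested genes, whereas Hes1 was longer than 25.7%. With a correction for length the values were −4.89 for Notch3, −2.78 for Jag1, 2.24 for Hes1, −0.57 for Notch2, −0.64 for Rbpj, −0.32 for Maml1 (adjusted p = 0.0271) and 0.86 for Notch1 (adjusted p = 0.00253, edgeR), so that every call was kept and the smaller falls shrank. The part of length in these differences was not tested further.

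Over the wider pathway, 64 further genes in 5 lists were looked up, 62 were found and 49 tested, of which 10 rose, 25 fell and 14 did not pass. Over all genes tested, 36.0% were called higher and 35.3% lower, 71.3% in all. The median log2 fold change of the 49 was −0.41, against −0.01 over all genes tested. With TPM, where 28.3% of all genes were called higher and 46.6% lower, the same lists had 9 higher and 32 lower. These lists were chosen with earlier results of the same data known, and their counts stand as descriptions.

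Of 13 tested genes for enzymes that cut and glycosylate the receptors, 7 fell, 1 rose and 5 did not pass (median −0.42 over the 13). The shares over all genes tested were 35.3% lower and 36.0% higher. Furin, the protease that cleaves the receptor on its way to the surface, fell from 195 ± 7.71 to 92.3 ± 20.2 CPM (log2 fold change −1.08), and Adam10, the sheddase that cuts ligand-bound Notch, from 60.6 ± 3.81 to 38.8 ± 2.61 CPM (−0.65). Pofut1, which adds the O-fucose that ligand binding needs, fell from 80.3 ± 1.84 to 41.4 ± 2.69 CPM (−0.95), and Ncstn, which encodes the gamma-secretase subunit nicastrin, from 240.2 ± 5.73 to 181 ± 3.34 CPM (−0.41). Their adjusted p-values were between 1.38e-05 and 0.000299 (edgeR). Of the fringe glycosyltransferases, Lfng and Rfng did not pass (log2 fold change 1.23 and −0.51) and Mfng had 3 counts in all.

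Among regulators of receptor and ligand turnover, 9 of 13 tested fell, with 1 higher and 3 not passing. Over all genes tested, 35.3% were called lower and 36.0% higher. The median of the 13 was −0.56, also with genes without a count in shBmal1 set to their bound. The 1 gene called higher was Fbxw7, the ubiquitin ligase subunit that marks the Notch intracellular domain, among other proteins, for degradation. Fbxw7 had 2.67, 2.66 and 1.97 FPKM in shNC and 15.3, 19.5 and 16.2 in shBmal1, with the groups far apart. It rose from 9.59 ± 1.65 to 61.9 ± 8.05 CPM (2.69 ± 0.16 in log2 units, SE; adjusted p = 2.5e-06, edgeR). Numbl, a relative of the Notch inhibitor Numb, fell from 104 ± 4.86 to 31.4 ± 3.31 CPM (−1.73), Dtx4, a deltex ubiquitin ligase gene, from 12.0 ± 1.60 to 2.62 ± 0.99 CPM (−2.21) and the endocytic kinase gene Aak1 from a mean of 34.8 to 17.9 CPM (−0.96). Neurl1b, a ubiquitin ligase of Notch ligands picked out after its values were seen, had 133, 127 and 102 counts in shNC and none in shBmal1, which is at least 30.3-fold lower when shBmal1 is set to 3 counts in all.

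Nuclear cofactors were divided, with 6 of 19 tested higher, 8 lower and 5 not passing (median −0.09). Over all genes tested, 36.0% were called higher and 35.3% lower. Ctbp1, which encodes a co-repressor that RBPJ complexes are known to recruit, fell from 151 ± 2.43 to 65.8 ± 5.03 CPM (log2 fold change −1.20). The co-activator Crebbp, a histone acetyltransferase, rose from 61.9 ± 2.45 to 146 ± 3.20 CPM (1.24), and Kdm5a, a histone demethylase linked to RBPJ repression, from 81.8 ± 3.85 to 188 ± 13.4 CPM (1.20). Their adjusted p-values were between 1.11e-06 and 3.34e-06 (edgeR).

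**Figure D5:**
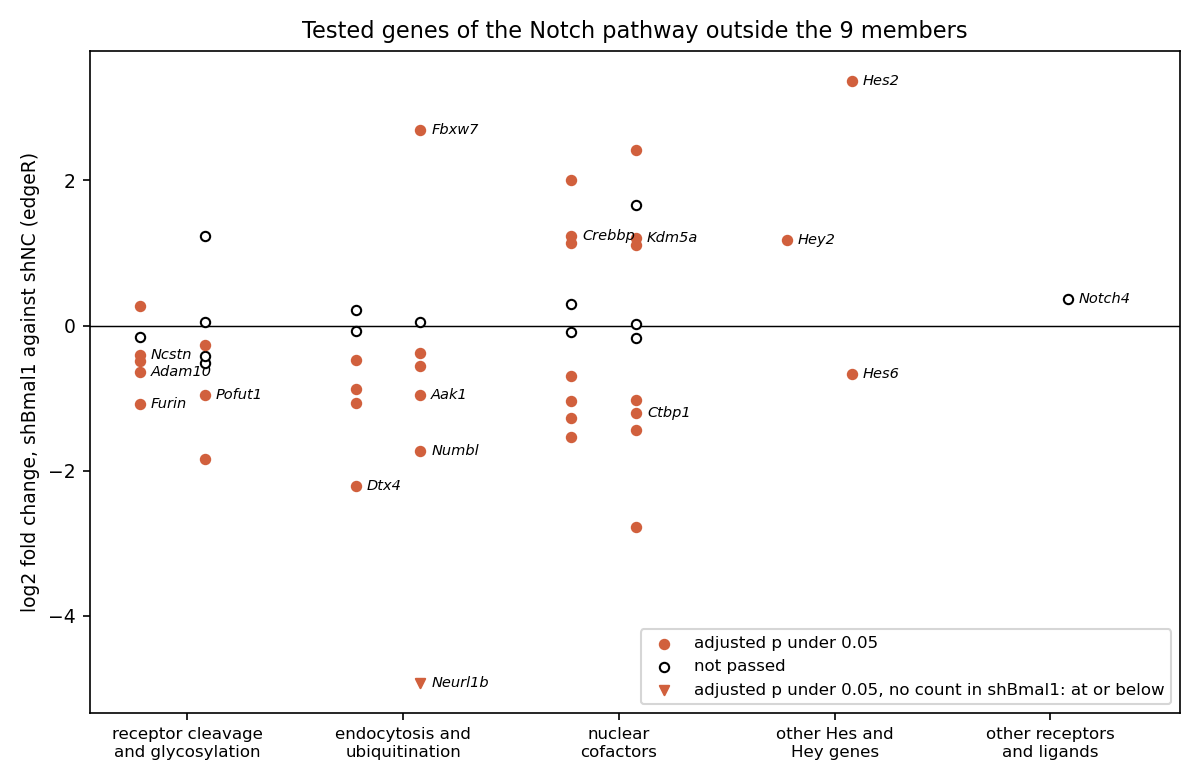
log2 fold change (shBmal1 against shNC, edgeR) of the 49 tested Notch pathway genes outside the 9 members, by list (filled, adjusted p under 0.05; open, not passed); most genes named in the text are labelled, and the triangle is the bound for Neurl1b, which had no count in shBmal1. Fbxw7 and Hes2 lie highest, and most genes of the first 2 lists lie below 0.

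The genes whose profile over the 6 libraries was nearest to each receptor, by Euclidean distance of centred log2 CPM, were Polg, Fam20c and Wbp1l for Notch2 (distances 0.0759 to 0.0854) and Zbtb21, Pura and Irs2 for Notch1 (0.147 to 0.163). Such profiles were common, with 3634 and 3111 genes within a distance of 1. Notch3 had 37 genes within that distance, and its nearest (Pcdhb10, Ifit1bl and Arrb2, 0.515 to 0.554) had about 1 CPM in shNC (1.29, 1.35 and 1.15) and no count in shBmal1, so that their distance depends on the count added before taking logs.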

How the data were processed

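The authors deposited 1 table with raw counts per gene and library and with FPKM (fragments scaled for gene length and library size), per the file headers. Where a gene has no count the authors list an FPKM of 1e-04, read here as 0 in sums. Per the submitters' processing notes the tools were edgeR, DESeq2, StringTie 1.3.4d, HISAT2 2.0.4 and cutadapt 1.9, listed without roles. Build, annotation, counting program and strand setting were not given in the sources used here. After filterByExpr (count at least 10, total at least 15) and TMM scaling, genes were tested with edgeR 4.0.16 (glmQLFTest, R 4.3.3) at a Benjamini-Hochberg adjusted p under 0.05 over all 14342 genes. CPM are TMM-scaled; SE is that of the log2 fold change. Alternatives used DESeq2 1.42.0 and limma 3.58.1 (log2 with a pseudocount of 1 or 0.1). The procedure was tested on simulated counts in which few genes were changed, in both directions. That simulation does not cover data in which 71.3% of the genes tested are called. Relative gene length is count over FPKM. Every pair of libraries in a group differed by more than counting error (chi-square over its degrees of freedom 10.5 or more). Exact two-sided permutation tests over 3 against 3 libraries cannot go below p = 0.1, the value found for Arntl. The members and lists were chosen with earlier results of these data known. Named were the 9 members, from each further list the 4 genes with the smallest p and every gene called in a direction with at most 3 calls, ligands and targets with few counts, defining markers, and the 3 genes nearest to each receptor. Some genes that this rule names are not reported here. Neurl1b, Lfng, Rfng and Mfng were named after their values were seen. Intervals of counts and floors of 3 counts cover counting error only. Promoters come from RefSeq (GRCr8).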

Additional observations from a re-analysis of the deposited data

How the results depend on the processing

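The 5 members that fell kept their direction and call in all 16 alternatives, as did Hes1. The count of members that rose went from 2 to 1, with Notch1 lost, without a low-count filter (adjusted p = 0.0639, edgeR), with TPM (0.524, limma), with FPKM and a pseudocount of 0.1 (0.0542, limma), and, when 1 library was left out, it lay between 1 and 2. TPM shifted the median of all genes to −0.35 and called 4065 genes higher and 6681 lower, against 5167 and 5066. Notch4 turned to −0.0058 with TPM and lay between −0.091 (without shBmal1 replicate 1) and 0.71 (without shNC replicate 3) when 1 library was left out, −0.069 without shNC replicate 2. The cause was not tested. The further pathway genes ran from 9 to 12 higher and from 19 to 32 lower. The replicate numbers showed no pairing of the libraries (correlations of same-numbered deviations −0.07, −0.0059 and 0.02, of differently numbered ones −0.08 to 0.08). Such values cannot tell whether same-numbered libraries were made together. With the replicate block, 2 members were higher and 5 lower and Notch1 kept its call (adjusted p = 0.0492, edgeR), while 9 further genes were higher and 26 lower. Hey1, not called in any setting, ran from −7.22 (without shBmal1 replicate 3) to −0.27 (FPKM with a pseudocount of 1), with −1.95 under the replicate block, −1.48 without shNC replicate 3, and −0.42 and −0.36 without shBmal1 replicate 1 and 2. It could not be fitted without shNC replicate 2, since it then missed the count filter. Low counts limit what can be said of Hey1, Heyl and the ligands other than Jag1.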
